A study of Mus musculus with 38 samples.

Results

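Acetylation of histone H3 at lysine 27 (H3K27ac) was compared between liver of mice fasted for 10 h and liver of mice with free access to food. The comparison rests on 2 pooled lists of acetylated regions, chosen by the library numbers in the list names. The 10 h list was made from 3 libraries of fasted C57BL/6 mice and the fed list from 3 libraries of fed C57BL/6 mice, all precipitated with the same H3K27ac antibody. These are 6 of the 38 samples of the study, and their 77694 regions are part of 278566 in 11 lists that could be matched to a group. The mice were kept in a 12 h light and dark cycle, and neither their age nor their sex is given in the sources used here. The labels do not say whether the 3 libraries of a group came from separate animals. Liver tissue was used, so the acetylated chromatin of hepatocytes and of the other liver cells was measured together, and fewer cells of a type cannot be told apart from less acetylation per cell.

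H3K27ac is laid down by the acetyltransferases p300 and CBP and marks active promoters and enhancers. In fasted liver, falling insulin and rising glucagon and glucocorticoids shift the programme of hepatocytes from storing nutrients to releasing glucose and ketone bodies. Glucagon acts through cAMP on the transcription factor CREB, which recruits CBP. Glucocorticoids act through the glucocorticoid receptor (GR), which binds enhancers directly.

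Each list gives 1 highest tag density, 1 mean density and 1 z-score per region for the pooled libraries. The lists carry 1 value for all 3 libraries together, so variation among replicates cannot be seen and no change was tested. What follows compares 1 list with 1 list. The lists hold no read counts, so the depth behind them is unknown. The fed libraries carry numbers that run on into those of the 24 h fasted libraries, while those of the 10 h libraries are higher and stand apart, so a difference between sets of libraries cannot be told apart from 10 h of fasting. The 10 h list held 47777 regions over 52.6 Mb and the fed list 29917 regions over 35.4 Mb. The 10 h list also reached lower, down to 0.355 in density and 7.72 in z-score, against 1.92 and 10.9 in the fed list. Unless stated otherwise, the 10 h list was therefore reduced to its 29917 densest regions, so that both had equal length. At that edge the density was 8.64 on both sides, for the last 5 regions kept and the first 5 left out. A shared base, 1 or more, made 2 regions a match. No factor list of 10 h fasted liver was available, so factor sites of fasted liver below are from 24 h of fasting. The lists held 13142 CREB sites of fed and 11339 of fasted liver. Of hepatocyte CREB sites there were 47596 in untreated cells (1 library), 28229 with glucagon and 42090 with corticosterone added. GR sites numbered 11892. A longer list offers more sites to overlap, and its part in the shares was not tested.

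Most acetylated regions were found in both states, and the match grew with density. At equal length, 7477 regions of the 10 h list had no fed match, which is 25.0% of the list (95% Wilson interval 24.5 to 25.5, counting error only), and 4862 regions of the fed list had no 10 h match, which is 16.3% (15.8 to 16.7). Of those unmatched fed regions, 54.7% did match a 10 h region of lower rank. A single 10 h region covered 2 or more fed regions 3021 times, while a single fed region covered 2 or more 10 h regions 708 times. Neighbouring fed regions were thus more often joined at 10 h than split.

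In the top of the lists nearly every region was shared, but the order differed. Among the 5000 densest regions, 99.3% of those at 10 h were matched anywhere in the fed list, and 99.9% of the fed ones anywhere in the longer 10 h list. Among ranks 10001 to 15000 the shares were 86.9% for 10 h regions and 97.0% for fed regions. Among ranks 25001 to 29917 they were 41.4% and 78.8%. The gap between the lists therefore lay mainly in regions of middle and low density, and the longer 10 h list gave fed regions more partners to match. Of the 100 densest regions at 10 h, all 100 were in the fed list at a median rank of 293, and 23 of them matched one of the 100 densest fed regions. Of the 100 densest fed regions, 99 were in the 10 h list at a median rank of 305. Of the 1000 densest, 51.0% of the 10 h regions matched one of the 1000 densest fed regions, and 51.5% of those fed regions matched back.

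**Figure D1:**
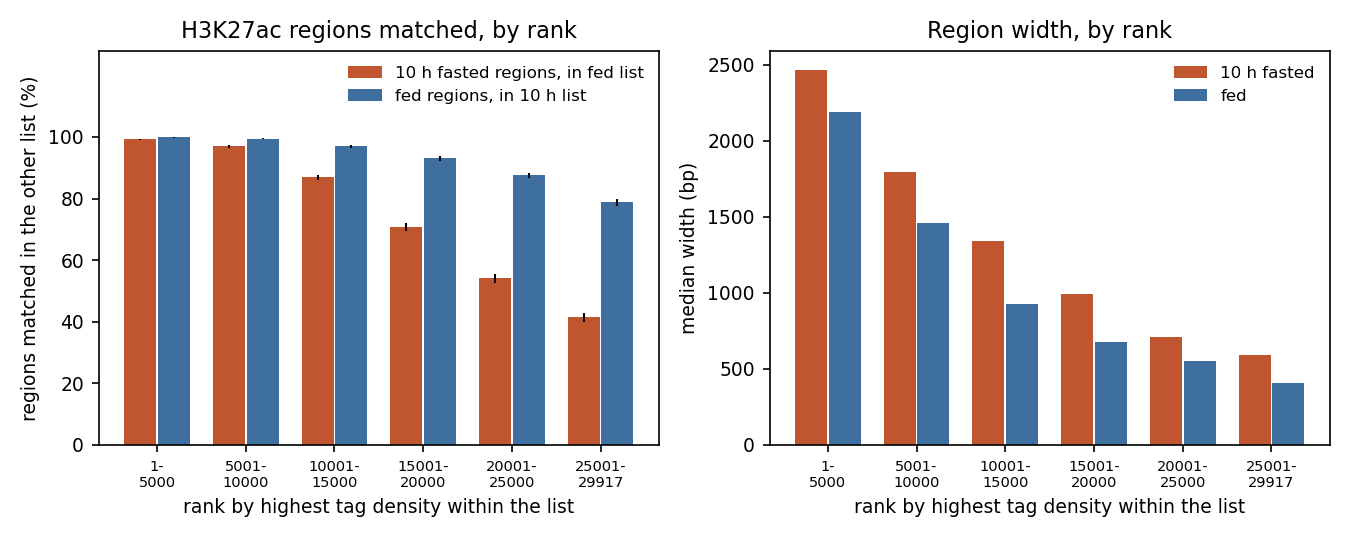
Left, share of regions (%) matched anywhere in the whole other list, by rank of highest tag density within the region's own list, with 95% Wilson intervals as bars; right, median width (bp) in the same ranks. The share for 10 h fasted regions declines to 41.4% at ranks 25001 to 29917, that for fed regions to 78.8%, and the 10 h regions are the wider ones at every rank.

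The 5 densest regions shared by the lists had a density at 10 h of 188.6 to 418.6 and ranks 3 to 14 in the fed list. The leading region lay on chromosome 11 from 3023458 to 3024638 (build mm9, as for all positions here), with a density of 418.6 at 10 h and 310.8 in fed liver, and 348.0 in the 24 h list. The next lay on chromosome 17 from 3083011 to 3084916, with 359.8 at 10 h and 282.1 in fed liver. Both sit close to the start of the sequenced part of their chromosomes. The other 3 lay together on chromosome 1 between 90107900 and 90185682. In this group the density was 223.5, 201.6 and 188.6 at 10 h and 185.0, 187.1 and 182.4 in fed liver. All 3 coincided with CREB sites of fed and of fasted liver and of isolated hepatocytes, and 2 of the 3 with a GR site. Of steady pairs (defined below) above the 10 h percentile of 75, 86.8% coincided with CREB sites of untreated hepatocytes. CREB sites of fed and of fasted liver overlapped 33.4% and 28.5% of them, and GR sites 716 of 5513. The median 10 h width of those pairs was 2203 bp, and these 3 regions were 2331 to 5135 bp wide. Density is scaled by the authors in an unstated way, so these values place regions within a list and are not a fold between lists.

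Dense regions missing altogether from the other state were few. Of the 15000 densest regions at 10 h, 841 (5.61%) were absent from the whole fed list, and of the 15000 densest fed regions, 186 (1.24%) were absent from the whole 10 h list. Since the 10 h list is the longer one, a fed region had more regions to match than a 10 h region had. Among the 5000 densest, the numbers were 35 at 10 h and 7 in fed liver, and among the 1000 densest 3 and 4. The absent regions were the narrower ones. At 10 h their median width was 1091 bp, and that of the other dense regions 1826 bp. In fed liver the medians were 602 bp and 1473 bp. Their median z-score was 26.5 against 59.0 at 10 h, and 20.7 against 51.3 in fed liver. Of the absent regions, 93 of the 186 fed regions lay under 1 kb from a 10 h region, and 118 of the 841 regions at 10 h lay under 1 kb from a fed region.

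The densest 10 h region without a fed counterpart lay on chromosome 12 from 56255512 to 56257027. Its density of 81.6 ranked 519 in the 10 h list, its z-score was 900, and the nearest fed region lay 73.5 kb away. A second region on the same chromosome, from 56330530 to 56332148, reached 75.7, rank 789, at a z-score of 825. Neither was in the 24 h list. Both coincided with CREB sites of fed and 24 h fasted liver and of hepatocytes that were untreated, given glucagon, or given glucagon and corticosterone. The other 3 of the 5 densest lay on chromosome Y between 2786985 and 2880074, with densities of 63.4 to 79.4 but z-scores of 16.4 to 26.5. A fed region lay within 1.01 kb of each, 1 of the 3 was in the 24 h list, and all 3 coincided with CREB and phospho-CREB sites of fed and fasted liver. Over all 841 absent 10 h regions, CREB sites of fed and fasted liver overlapped 12.96% and 13.6%, and phospho-CREB sites 5.9% and 4.2%. CREB sites of hepatocytes that were untreated, given glucagon, or given glucagon and corticosterone overlapped 45.3%, 34.1% and 47.7%.

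Among fed regions absent from the 10 h list, the densest lay on chromosome 1 from 197067603 to 197068292. Its fed density of 318.0 put it at rank 2, its z-score was 268, and it lay 10.2 kb from the nearest 10 h region. In the 24 h list its density was 95.1, at rank 369. It coincided with CREB sites of hepatocytes in all 3 of those conditions and with a GR site. Over all 186 absent fed regions, 37.6% coincided with CREB sites of untreated hepatocytes and 6.45% with a GR site. The next 3 lay on chromosome Y between 2856159 and 2887421, with fed densities of 80.7 to 111.9 and z-scores of 12.6 to 17.4, each within 1.01 kb of a 10 h region and all of them in the 24 h list. The densest of these 3 coincided with no factor site. The next coincided with CREB and phospho-CREB sites of fasted liver, and the least dense with CREB sites of fed and fasted liver. These 6 regions of chromosome Y thus had acetylation of the other state close beside them. The last of the 5, on chromosome 18, had a density of 70.8 in fed liver and 28.7 in the 24 h list, and no factor site.

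Some regions of the 10 h list combined a moderate density with a very high z-score, and this was rare in the other lists. A z-score over 5 times the density was given to 2146 regions of the whole 10 h list (4.49%), against 8 of the fed list (0.0267%) and 14 of the 24 h list (0.0436%). At equal length these were 171 of the 7477 unmatched 10 h regions (2.29%, interval 1.97 to 2.65) and 84 of the 22440 matched ones (0.374%, 0.302 to 0.463). Among the dense 10 h regions absent from fed liver they were 47 of 841 (5.59%). The pair on chromosome 12 had ratios of 11.0 and 10.9, where the median of the 10 h list was 1.70. The 6 named regions of chromosome Y had low ratios, from 0.155 to 0.333, where the median of the fed list was 1.55. How the z-score was scaled is not stated, and its part in the differences was not tested. Without these regions and the fed regions they match, the dense regions absent from the other list numbered 797 at 10 h and 186 in fed liver.

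Unmatched regions of the 10 h list piled up in 1 stretch of chromosome 4, though not over that chromosome as a whole, where 28.3% of the 10 h regions were unmatched, against 28.8% on chromosome 6 and 25.0% over all. When regions of both equal-length lists were joined across gaps of up to 12.5 kb, they formed 16098 domains, of which 12233 held regions of both lists, 1871 of the 10 h list alone and 1994 of the fed list alone. Within domains that also held fed regions lay 69.6% of the unmatched 10 h regions, and within domains that also held 10 h regions lay 47.7% of the unmatched fed regions. Of the 5 domains with the most unmatched 10 h regions, 3 lay on chromosome 4. They ran from 60590411 to 60610459, from 60887918 to 60910191 and from 60430327 to 60450295, and held 14, 13 and 11 regions at 10 h and 0 in fed liver. In the stretch from 60 to 62 Mb of that chromosome, singled out after these values were seen, the 10 h list at equal length had 162 regions, 109 of them unmatched, against 82 in the fed list. The 24 h list also had 82. Here 68 of the 162 regions at 10 h had a z-score over 5 times their density, against 2 of 82 in fed liver and 1 of 82 at 24 h. The highest density in the stretch was 73.2 at 10 h (rank 924) and 117.7 in fed liver (rank 95). It also held 110 CREB sites of fed liver, 89 of fasted liver, 123 of untreated hepatocytes and 27 GR sites.

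The other named domains differed in their neighbours. A domain on chromosome X from 120303432 to 120338313 held 18 regions at 10 h and 6 in fed liver, among 27 CREB sites of fasted liver, 26 of fed liver and 12 GR sites. One on chromosome 6 from 94597127 to 94651835 held 16 regions at 10 h and 7 in fed liver, with 11 unmatched ones at 10 h, 4 CREB sites of glucagon-treated hepatocytes and 0 of liver. On the fed side, a domain on chromosome 3 from 25418020 to 25454637 had 0 regions at 10 h and 12 in fed liver, with 24 in the 24 h list and 22 CREB sites of fasted and 23 of fed liver. Another, on chromosome 10 from 115694841 to 115748441, had 9 regions at 10 h and 18 in fed liver, and 16 in the 24 h list. It had 2 CREB sites of fed liver and 0 of fasted liver. The remaining 3 fed-side domains, on chromosomes 10, 13 and 4, held 0 to 3 regions at 10 h and 7 to 10 in fed liver, and no CREB site of liver or of glucagon-treated hepatocytes and no GR site. The other hepatocyte CREB lists were not counted in the domains.

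Regions with exactly one partner in each list were used to follow the order of acetylation. There were 18193 such pairs. For each, the percentile of density within the equal-length lists was compared, with 100 the densest. Across pairs, Spearman's rho between the 10 h and the fed density was 0.822, given as a description without a test, since all pairs share the same libraries. Most pairs, 79.0%, kept their percentile to within 20 points. A percentile at least 20 points higher at 10 h was found for 1808 pairs (9.94%), and one at least 20 points lower for 2010 pairs (11.0%). The balance turned with the ranking, to 2103 higher and 1830 lower by z-score, and to 6726 higher and 175 lower by percentile within the whole lists. In the highest 20% of pairs by fed percentile, 0 ranked higher at 10 h by that rule and 177 lower. In the lowest 20%, 1041 ranked higher and 163 lower, as the ends of a ranked list impose.

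**Figure D2:**
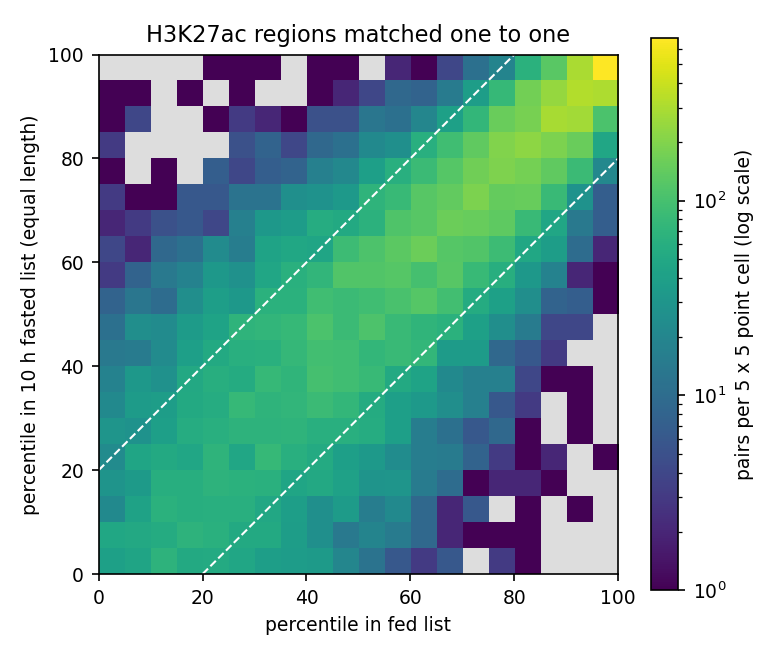
Percentile of highest tag density in the 10 h fasted list (vertical) against that in the fed list (horizontal) for 18193 regions matched one to one; colour gives the number of pairs per cell of 5 by 5 points on a log scale, grey cells hold none, and the dashed lines mark a shift of 20 points. Most pairs lie between the lines, with 1808 on or above the upper and 2010 on or below the lower line.

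The largest shifts to a higher rank at 10 h were of regions at the bottom of the fed list. On chromosome 11 from 87261598 to 87262361 the density was 60.7 at 10 h and 5.60 in fed liver, percentiles of 93.5 and 1.64. The region was also low in the 24 h list, at a density of 5.11. On chromosome 7, regions from 113422766 to 113425647 and from 113174504 to 113176853 had densities of 49.8 and 44.8 at 10 h and of 3.73 and 2.66 in fed liver. They were 2882 and 2350 bp wide at 10 h and 389 and 253 bp wide in fed liver. In these 3 regions the z-score at 10 h was 5.09 to 9.85 times the density. The other 2 of the 5 were a region of chromosome 2 (132507849 to 132509450) and one of chromosome 10 (5739985 to 5742507), with ratios of 1.36 and 1.58. Their densities were 56.3 and 45.3 at 10 h, against 7.76 and 6.02 in fed liver, and 22.3 and 8.61 in the 24 h list. All 5 coincided with CREB sites of untreated hepatocytes and 1 of the 5 with a GR site, where over all 10 h regions 57.9% and 8.51% did. Of pairs ranking higher that were above the 10 h percentile of 75, as these 5 were, 70.5% and 14.0% did.

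The largest shifts to a lower rank were of regions dense in fed liver. On chromosome 7 from 120351198 to 120351725 the density was 10.2 at 10 h and 59.6 in fed liver, percentiles of 11.6 and 92.2, and 50.4 in the 24 h list. On chromosome 2 from 157394651 to 157396108 it was 12.1 at 10 h and 86.0 in fed liver, and 78.8 in the 24 h list. This region overlapped no factor site. On chromosome 3 from 104344524 to 104345342 it was 10.4 at 10 h and 45.2 in fed liver, and 46.8 in the 24 h list. By percentile within the list, these 3 regions stood at 90.55, 97.39 and 88.92 at 24 h and at 92.18, 97.91 and 84.95 in fed liver. At 10 h they stood at 11.56, 23.54 and 13.42. The regions were chosen by their fed and 10 h values, and the part of that choice was not tested. The remaining regions, of chromosome 12 (103520658 to 103521657) and chromosome 16 (35743548 to 35744129), had 9.57 and 8.84 at 10 h and 38.6 and 40.4 in fed liver, with 24.9 and 14.3 in the 24 h list. The last was 582 bp wide at 10 h and lay inside a fed region of 3356 bp. The regions of chromosomes 7, 12 and 16 coincided with CREB sites of untreated hepatocytes. Of pairs ranking lower that were above the fed percentile of 75, 77.1% did. The region of chromosome 16 also coincided with CREB sites of fed liver, and that of chromosome 3 with CREB sites of hepatocytes given glucagon and corticosterone.

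Acetylated regions were wider at 10 h. In the pairs the median width was 1377 bp at 10 h and 1085 bp in fed liver. The median ratio of widths, 10 h over fed, was 1.16, and 78.9% of pairs were wider at 10 h (interval 78.3 to 79.4). A width at least 1.5 times that of the partner was found in 23.1% of pairs at 10 h and the converse in 2.71%. The ratio was 1.66 in the lowest 20% of pairs by fed percentile and 1.07 in the highest. Pairs that ranked lower at 10 h were the exception, with a median ratio of 0.911 and 33.5% of them wider. Width depends on depth and threshold as well as on acetylation, and their part was not tested.

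**Figure D3:**
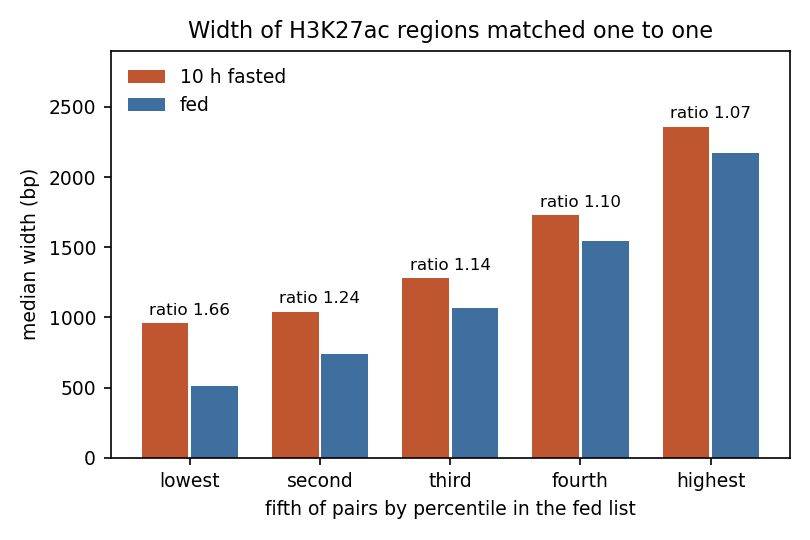
Median width (bp) of regions matched one to one, 10 h fasted beside fed, in steps of 20% of pairs by percentile in the fed list; the number above each pair of bars is the median of the ratio 10 h over fed. The ratio is 1.66 in the lowest 20% and 1.07 in the highest.

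Counted in bases, the equal-length 10 h list covered 44.7 Mb and the fed list 35.4 Mb, with 31.3 Mb in common. At 10 h, 13.4 Mb lay outside fed regions, and in fed liver 4.08 Mb lay outside 10 h regions, which is 11.5% of the fed bases. The bases found at 10 h alone were mostly flanks of matched regions, which made up 59.0% of them, while the flanks made up 34.7% of the bases found in fed liver alone. Distances between the equal-length lists depended on the range looked at. Under 1 kb from the other list lay 22.9% of the unmatched 10 h regions (interval 22.0 to 23.9) and 22.4% of the unmatched fed regions (21.3 to 23.6), and these intervals overlap. At 10 kb or more lay 37.3% of the unmatched 10 h regions (36.2 to 38.4) and 56.1% of the unmatched fed regions (54.7 to 57.5). The figure for fed regions holds at equal length only, since 2660 of these 4862 regions share bases with a 10 h region that ranked below the cut. Their distances to the whole 10 h list were not counted.

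GR sites were more frequent in acetylation found at 10 h alone than in that found in fed liver alone, and in pairs ranking higher at 10 h than in pairs ranking lower. The GR sites come from isolated hepatocytes given 10 nM glucagon and 1.7 uM corticosterone for 1 h, and were not used to choose the regions. They overlapped 6.07% of the unmatched 10 h regions (interval 5.55 to 6.64), 2.41% of the unmatched fed regions (2.01 to 2.88) and 9.32% of the matched 10 h regions (8.95 to 9.71). Among pairs they overlapped 10.9% of those ranking higher at 10 h (9.59 to 12.5), 5.22% of those ranking lower (4.33 to 6.29) and 8.39% of the steady ones (7.95 to 8.85). These intervals do not overlap, but they cover counting error in these lists and no spread between animals. Widths differed too, with medians of 609 bp in unmatched 10 h and 476 bp in unmatched fed regions. They were 1408 bp at 10 h in pairs ranking higher and 847.5 bp in pairs ranking lower. In a 500 bp window at the region centre, GR sites overlapped 8.96% (7.73 to 10.4) and 4.83% (3.97 to 5.85) of these pairs. Among regions of 500 to 1500 bp they overlapped 70 of 1020 and 65 of 1343. Among the dense regions absent from the whole other list, GR sites overlapped 10.7% at 10 h (8.79 to 12.97) and 6.45% in fed liver (3.73 to 10.9), with overlapping intervals and a ratio of 1.66, against 2.52 for unmatched regions.

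CREB sites had another order. CREB sites of 24 h fasted liver overlapped 8.53% of the unmatched 10 h regions (7.92 to 9.19) and 4.79% of the unmatched fed regions (4.23 to 5.43), a ratio of 1.78. Both shares were below those over all regions, 15.8% of the equal-length 10 h list and 15.2% of the fed list. Matched 10 h regions had 18.2%. Among dense regions absent from the whole other list they overlapped 13.6% at 10 h (11.4 to 16.0) and 11.8% in fed liver (7.94 to 17.3), with overlapping intervals and a ratio of 1.15. Among pairs, however, they overlapped 10.9% of those ranking higher at 10 h (9.54 to 12.4), 12.7% of those ranking lower (11.3 to 14.3) and 19.8% of the steady ones (19.2 to 20.5). CREB sites of fed liver gave 13.2%, 16.5% and 24.1% in the same order. CREB sites of glucagon-treated hepatocytes gave 43.4% of the pairs ranking higher (41.1 to 45.7) and 42.6% of those ranking lower (40.4 to 44.8), and with corticosterone added 60.4% (58.1 to 62.6) and 54.1% (51.9 to 56.2). Phospho-CREB sites of fed liver overlapped 5.03% of the unmatched 10 h regions (4.56 to 5.55) and 2.51% of the unmatched fed regions (2.11 to 2.99), and those of 24 h fasted liver 4.05% (3.63 to 4.52) and 1.85% (1.51 to 2.27). Over all regions of the equal-length 10 h and the fed list, the shares were 5.89% and 5.3% for phospho-CREB of fed liver. For phospho-CREB of 24 h fasted liver they were 3.57% and 3.01%. The ratios of unmatched 10 h over unmatched fed regions, 2.00 and 2.19, are near the 2.52 of GR. Among regions of 500 to 1500 bp these ratios were 2.41 and 2.56, against 2.24 for GR. In dense regions absent from the whole other list they were 1.00 and 1.29. Among pairs, phospho-CREB sites of 24 h fasted liver overlapped 2.99% of the pairs ranking higher (2.30 to 3.88) and 3.88% of those ranking lower (3.12 to 4.82). Steady pairs had the highest share at all 5 CREB lists, whereas at GR sites the pairs ranking higher at 10 h did. For phospho-CREB of fasted liver the steady pairs, at 3.38%, lay between the other classes.

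Pairs of one class differ in density and width, so classes were also set side by side within a band of 10 h percentile, and then of fed percentile, a step chosen after the other values were seen. Between the percentiles of 50 and 75 at 10 h, the median 10 h width was 1427 bp in pairs ranking higher, 1445 bp in pairs ranking lower and 1406 bp in steady pairs. GR sites overlapped 10.3% of 861 pairs ranking higher (8.48 to 12.5), 7.07% of 311 ranking lower (4.72 to 10.5) and 6.12% of 4246 steady pairs (5.44 to 6.88). CREB sites of fasted liver overlapped 10.7% (8.79 to 12.9), 23.5% (19.1 to 28.5) and 18.7% (17.6 to 19.9) of the same classes. Hepatocyte CREB sites with glucagon overlapped 42.5%, 67.2% and 55.6%. At like density and width at 10 h, pairs ranking higher thus had the highest GR share and the lowest CREB share. In this band the intervals for GR overlap between pairs ranking higher and lower, and do not between pairs ranking higher and steady. Above the percentile of 75 the GR share was 14.0% of pairs ranking higher (11.0 to 17.7) and that of steady pairs was 716 of 5513 (12.1 to 13.9%), with overlapping intervals.

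Within a band of fed percentile the pairs ranking higher again had the highest GR share, but the lowest share at only some of the CREB lists. Between the fed percentiles of 50 and 75, GR sites overlapped 39 of 300 pairs ranking higher at 10 h (9.66 to 17.3%), 4.76% of 882 ranking lower (3.54 to 6.37) and 6.77% of 4255 steady pairs (6.05 to 7.56). CREB sites of fasted liver overlapped 12.0% (8.80 to 16.2), 11.2% (9.31 to 13.5) and 18.1% (17.0 to 19.3) of these classes. Hepatocyte CREB sites with glucagon overlapped 54.0% (48.4 to 59.5), 44.6% (41.3 to 47.8) and 55.2% (53.7 to 56.7). Pairs ranking higher were lowest at CREB sites of fed liver, with 15.3%, 16.7% and 22.5% in the same order. The same held for phospho-CREB sites of fed liver (3.33%, 5.33% and 6.49%) and of fasted liver (2%, 3.5% and 3.3%). At these lists the intervals of pairs ranking higher and lower overlap. Here the 10 h widths differed, with medians of 1790, 882 and 1402 bp, and the part of width in these shares was not tested. For CREB of fasted liver and of glucagon-treated hepatocytes, the place of pairs ranking higher therefore depends on which list sets the band. Among regions of 500 to 1500 bp, without bands, GR sites overlapped 6.86% of 1020 pairs ranking higher and 4.84% of 1343 ranking lower. That is a ratio of 1.42, against 2.10 over all widths, and is given without intervals.

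**Figure D4:**
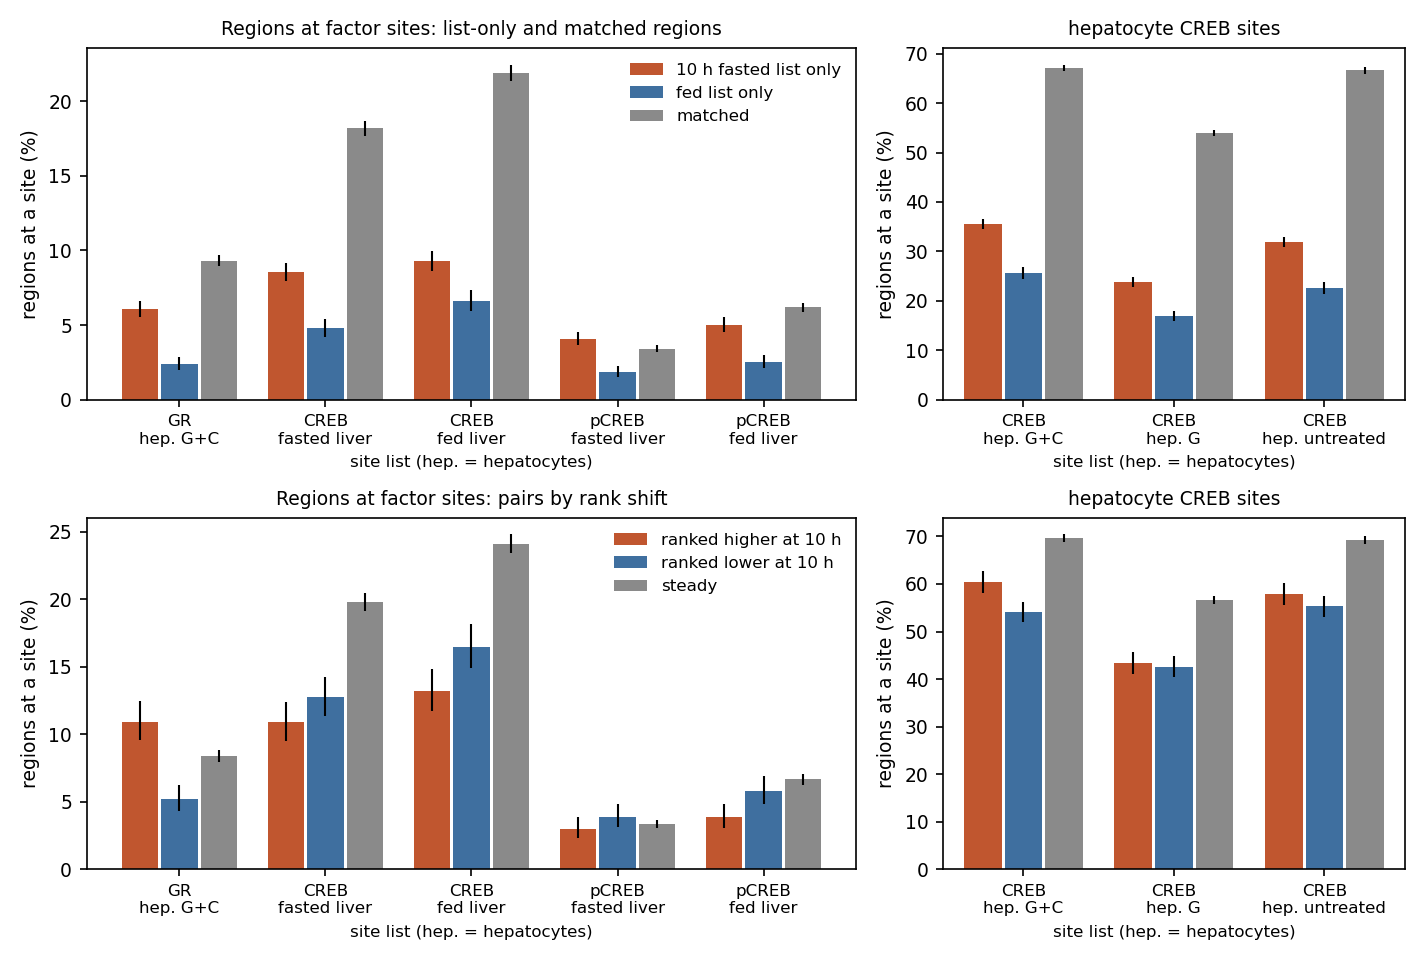
Share of H3K27ac regions (%) that overlap a site of GR, CREB or phospho-CREB (pCREB), with 95% Wilson intervals; top, regions of the 10 h fasted list only, the fed list only and matched regions; bottom, pairs ranking at least 20 percentile points higher at 10 h, lower at 10 h, or steady. Hepatocyte lists (hep.) are untreated or given glucagon (G) or glucagon and corticosterone (G+C). Factor sites of fasted liver are from 24 h of fasting. GR sites overlap 10.9% of the pairs ranking higher and 5.22% of those ranking lower, while the 5 CREB lists are highest in steady pairs.

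Dense factor sites lay in acetylated regions more often than weaker ones. Of the densest 20% of GR sites, 57.7% lay in a region of the equal-length 10 h list and 50.4% in a fed region, and of the middle 20%, 15.6% and 10.9%. In an unmatched 10 h region lay 213 of the densest 20% of GR sites, 154 of the next and 78 of the middle 20%. In an unmatched fed region lay 45, 51 and 11 of them. Of the fourth and the weakest 20%, 28 and 11 lay in an unmatched 10 h region and 3 and 0 in an unmatched fed region. At every density more GR sites thus lay in unmatched 10 h regions, of which there were 7477 against 4862 in fed liver. CREB sites of fasted liver showed the same decline, with 82.2% of the densest 20% and 45.4% of the middle 20% in a 10 h region.

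The 24 h list, from 3 other libraries of livers fasted for 24 h, gave a further reading of the same regions. Unmatched 10 h regions were found in it at 26.8% (25.8 to 27.8), unmatched fed regions at 62.7% (61.3 to 64.0) and matched 10 h regions at 91.7%. Of the dense regions absent from the other list, 42.0% of those at 10 h (38.7 to 45.3) and 78.0% of the fed ones (71.5 to 83.3) were in the 24 h list. Most unmatched 10 h regions were thus not in the 24 h list, while most unmatched fed regions were. Unmatched is not absent here, since 54.7% of those fed regions match a lower-ranked 10 h region. Pairs ranking higher at 10 h and found at 24 h had a median percentile of 31.4 in fed liver, 63.2 at 10 h and 48.2 at 24 h. Pairs ranking lower had 59.1 in fed liver, 26.3 at 10 h and 59.5 at 24 h. Steady pairs had 69.2, 69.1 and 70.9. The 24 h percentile was that of the densest region matching the 10 h region, within the whole 24 h list of 32103 regions. At 24 h, 81.1% of the pairs that ranked higher at 10 h were above their fed percentile (79.1 to 83.0), against 49.2% of those that ranked lower (46.9 to 51.5). Of steady pairs, 56.5% were (55.7 to 57.4). These pairs were chosen by their fed and 10 h values, and the fed and 24 h libraries have adjoining numbers, so a return at 24 h cannot be told apart from a likeness of libraries.

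**Figure D5:**
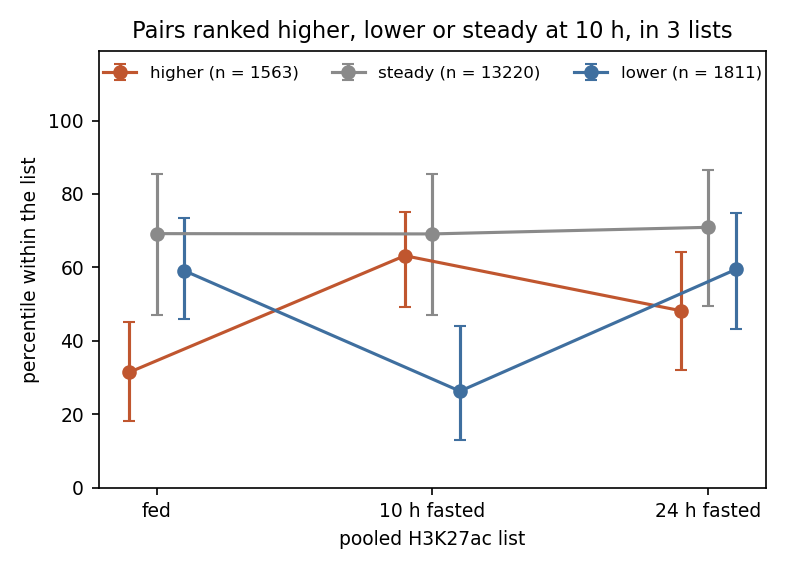
Percentile of highest tag density within the fed, 10 h fasted and 24 h fasted lists (median as point, quartiles as bars) for pairs that ranked at least 20 points higher, at least 20 points lower or steady at 10 h and were found in the 24 h list. Pairs ranking lower have medians of 59.1, 26.3 and 59.5, and pairs ranking higher 31.4, 63.2 and 48.2; the fed and 10 h values chose the classes.

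Chromosome X stood apart from the other chromosomes. At equal length the 10 h list had 693 regions there and the fed list 857, with 186 unmatched at 10 h and 286 unmatched in fed liver. The ratio of unmatched 10 h to unmatched fed regions was 0.650, whereas it was 1.15 to 2.34 on the other 20 chromosomes. In the whole 10 h list, however, X held 2015 regions or 4.22% of the list, against 2.86% of the fed list. Whether 10 h or fed liver had more regions on X thus turned with the length of the list. The median density on X was 14.4 at 10 h and 11.4 in fed liver, each lower than on any other chromosome of its list.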

How the data were processed

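Regions precipitated with an antibody to H3K27ac from mouse liver were compared as the authors' lists give them. Per the submitters' processing notes, CASAVA 1.8 and genome build mm9 were used. Names of the lists state hotspot calls and pooling of libraries. Aligner, thresholds and caller version: not given in the sources used here. Per the file headers, the deposited values are the highest and mean tag density of each region (a signal, scaling not stated). The authors' lists also give each region a score, named a z-score per the file headers, whose background model is not stated. Density and score were used only to rank, filter or describe regions within a list. From them the overlaps, ranks, widths and 95% Wilson intervals were computed with Python 3.11.15, numpy 2.4.6, pandas 2.3.3 and SciPy 1.17.1, and plotted with matplotlib 3.10.9. The overlap and ranking steps were checked on simulated lists. Depth per sample is unknown.

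Regions named are, by rule, the 5 densest of each list absent from the other, the 5 densest matched, the 5 largest shifts each way among pairs in the densest 20% of a list, and the 5 domains with the most unmatched regions of each list. The members, lists and rules were chosen with earlier results of these data known. No gene annotation of mm9 was used here, so no gene was named, no planned gene or cell marker list was counted and no sequence was read. Of 13 deposited lists, 2 matched no sample, and their 8 columns were not used.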

Additional observations from a re-analysis of the deposited data

How the results depend on the processing

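Of 134 alternative values, 90 kept their direction and stayed within the range set for no change, 43 moved beyond it and 1 reversed. The reversal was the share at CREB sites of fed liver, 10 h alone over fed alone, which was 1.40. It became 0.927 among the dense regions absent from the whole other list. There 109 of 841 regions at 10 h (10.9 to 15.4%) and 26 of 186 in fed liver (9.72 to 19.7%) were at a site, with overlapping intervals. Unmatched regions numbered 22324 at 10 h and 2202 in fed liver in the whole lists, and 2836 and 2157 in the upper 50% of each. Dense absent regions numbered 35 at 10 h and 7 in fed liver among the 5000 densest, 186 and 34 among the 10000 densest, and 1306 and 97 when ranked by z-score; with gaps of up to 500 bp counted as a match, 105 fed regions were left. Pairs ranking higher and lower at 10 h numbered 4138 and 4514 at 10 points, 736 and 844 at 30 points, and 6726 and 175 with percentiles of the whole lists. The share of pairs wider at 10 h was 76.4% in the whole lists and 81.8% among the 5000 densest pairs.

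The other ratios of shares, 10 h alone over fed alone, were as follows. With gaps of up to 500 bp they were 1.21 for CREB of fed liver, 1.51 for CREB of fasted liver, and 1.26, 1.25 and 1.29 for CREB of untreated, glucagon and glucagon with corticosterone hepatocytes. Among regions of 500 to 1500 bp the hepatocyte ratios were 1.27, 1.29 and 1.29. Without regions at liver phospho-CREB sites the ratio for CREB of fed liver was 1.06. Among the dense regions absent from the whole other list the ratios were 1.15 for CREB of fasted liver and 1.00 and 1.29 for phospho-CREB of fed and fasted liver. They were 1.20, 1.13 and 1.14 for hepatocyte CREB, and 1.66 for GR. For pairs ranking higher over lower, a shift of 30 points gave 1.12, 1.15 and 1.20 for hepatocyte CREB, and regions of 500 to 1500 bp gave 1.42 for GR, against 2.10 over all widths. Domains of the 10 h list alone numbered 3076 with gaps of 5000 bp and 1067 with 25000 bp, and domains with 3 or more unmatched regions 261 at 10 h and 142 in fed liver with gaps of 5000 bp. The cause of these changes was not tested.

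No paired analysis was possible because each condition has 1 pooled list with no value per library, and leaving out a replicate was not run for the same reason. The following alternatives were chosen after seeing the data: for site shares, those on width, phospho-CREB sites and dense regions and all those for pairs ranking higher over lower, and for counts, mean density, a floor on the z-score and the removal of regions of high z-score per density. Depth is unknown, so regions near the lower edge of a list cannot be called absent.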
